A study of Mus musculus with 9 samples.

Results

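The TNF ligand and receptor superfamily was followed through DNA methylation at 295 CpGs of 356320 tested, in mouse spleen cells that had turned into plasma cells or plasmablasts and in naive B cells. A CpG was taken where the deposited table names a gene beginning Tnfrsf or Tnfsf with a number as the closest by start site, and where each of the 9 libraries had 10 or more reads. Of 818 such CpGs deposited for 31 genes, these 295 passed, and they belong to 28 genes. Tnfrsf26, Tnfsf11 and Tnfsf18 had 1, 8 and 4 CpGs deposited and none that passed. Since the gene is the closest by start site, 172 of the 295 CpGs lay in the body or promoter of the named gene, 97 lay outside genes and 26 lay only in another gene. No measured value entered this choice beyond read depth.

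The libraries were 3 each of plasma cells (B220low CD138+), plasmablasts (B220mid CD138+) and naive B cells (B220+ CD43-), taken from the spleen of 10-week-old female C57Bl/6J mice. The plasma cells and plasmablasts were taken on day 3 after lipopolysaccharide (LPS), a bacterial product that drives B cells to divide and to secrete antibody. The naive B cells carry control as their agent. Neither the number of mice nor which mouse gave which library is stated in the labels, so p-values speak only of the spread between libraries, which may be technical. Reduced representation bisulfite sequencing reads the fragments released by MspI, which cuts at CCGG, and the level of a CpG is the percentage of its reads that kept the cytosine.

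Members of this superfamily are trimeric ligands on or shed from one cell and receptors on another, and the receptors pass their signal through TRAF proteins to NF-kB or, where they carry a death domain, to caspases. In the B cell lineage the best known branch is that of BAFF and APRIL. BAFF keeps naive B cells alive through the BAFF receptor (Tnfrsf13c), TACI (Tnfrsf13b) binds both ligands and takes part in responses that need no T cells, and BCMA (Tnfrsf17) supports long-lived plasma cells. The other branches hold costimulators of T cells, TNF and death receptors, and regulators of bone and epithelium.

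The libraries held 16037172 to 29948088 reads over all deposited CpGs, with a median of 25 to 42 reads at the 295 CpGs. At the minimum of 10 reads a level of 50% has a 95% Wilson interval of 23.7 to 76.3%, so single CpGs are read over 3 libraries and loci over summed reads. Amplified reads carry no molecular identifiers here and can be copies of one molecule, so such intervals cover counting error only. The libraries fell into sets by their background. The 3 plasma cell libraries and naive B cells 1 had 0.332 to 1.05% apparent methylation on the mitochondrial genome, and the 3 plasmablast libraries and naive B cells 2 and 3 had 2.77 to 7.18%. All plasma cell libraries were in the lower set and all plasmablast libraries in the higher, so in the comparison between them the naive B cell libraries alone separate set from cell type. The split was also fitted as a term (the library set), and the locus and start region calls that it ended are named below. The labelled cell types were checked near the start sites of marker genes: Sdc1 and Xbp1, plasma cell markers, averaged 0.869 to 1.42% in plasma cells, 3.33 to 5.30% in plasmablasts and 0.904 to 2.38% in naive B cells, and the B cell markers Cd79b and Pax5 averaged 0.775 to 0.798%, 3.45 to 4.38% and 1.35 to 2.71% in the same order of groups. These genes were low in every group, as was Eomes, an NK cell gene (2.07%, 5.01% and 2.54%), so these markers do not tell the cell types apart here. Thy1, the T cell gene measured, averaged 15.2%, 21.6% and 17.6%, and no myeloid marker had CpGs that passed.

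Start-site sequences are shown for the genes on which the results turn, since they say which CpGs the assay could reach. RefSeq promoters (GRCm38.p6, 250 bases before to 50 after the start) were found for 24 of the 31 genes. Of the 28 promoters of these genes 15 hold CCGG, the MspI site, which is a palindrome and reads alike on both strands; 52.8% of all 32851 mouse promoters of that length hold it. The BAFF receptor promoter (chr15:82224331-82224630, minus strand) holds 12 CpGs and no CCGG, and none of its CpGs is in the deposited table. The TACI promoter (chr11:61126505-61126804, plus strand) holds 8 CpGs and 1 CCGG, with 1 CpG deposited and none tested. Both are printed with every CpG in capitals. The losses described below for these genes therefore come from other parts of the loci, whose sequence is not used here.
BAFF receptor (Tnfrsf13c) promoter: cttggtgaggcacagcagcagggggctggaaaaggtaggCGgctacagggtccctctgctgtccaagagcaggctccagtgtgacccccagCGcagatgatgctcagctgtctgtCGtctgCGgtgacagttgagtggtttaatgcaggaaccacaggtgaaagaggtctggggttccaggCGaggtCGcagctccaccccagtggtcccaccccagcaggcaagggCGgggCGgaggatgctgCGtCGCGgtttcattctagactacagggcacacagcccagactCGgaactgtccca
TACI (Tnfrsf13b) promoter: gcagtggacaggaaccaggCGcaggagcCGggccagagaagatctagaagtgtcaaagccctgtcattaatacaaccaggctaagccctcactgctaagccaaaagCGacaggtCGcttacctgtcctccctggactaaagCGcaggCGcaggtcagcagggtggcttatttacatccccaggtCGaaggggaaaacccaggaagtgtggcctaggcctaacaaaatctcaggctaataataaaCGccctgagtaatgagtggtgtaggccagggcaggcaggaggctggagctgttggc

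The promoters of CD30 (Tnfrsf8, chr4:145315115-145315414, minus strand) and of TNF receptor 1 (Tnfrsf1a, chr6:125349473-125349772, plus strand) were measured well and are printed with only their tested CpGs in capitals. The tested CpGs were placed by their spacing. All 10 of Tnfrsf8 fell on CG letters at a single shift of the start site, of 17 bases, and all 5 of Tnfrsf1a at a shift of 0. Each promoter holds 4 and 3 CCGG sites, in that order. The plot of levels around these start sites shows what was read there.
CD30 (Tnfrsf8) promoter: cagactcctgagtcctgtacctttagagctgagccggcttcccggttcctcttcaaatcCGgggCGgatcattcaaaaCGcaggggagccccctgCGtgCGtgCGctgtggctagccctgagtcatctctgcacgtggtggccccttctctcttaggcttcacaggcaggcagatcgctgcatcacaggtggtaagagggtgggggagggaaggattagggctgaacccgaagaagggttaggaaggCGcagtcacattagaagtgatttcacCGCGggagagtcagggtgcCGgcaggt
TNF receptor 1 (Tnfrsf1a) promoter: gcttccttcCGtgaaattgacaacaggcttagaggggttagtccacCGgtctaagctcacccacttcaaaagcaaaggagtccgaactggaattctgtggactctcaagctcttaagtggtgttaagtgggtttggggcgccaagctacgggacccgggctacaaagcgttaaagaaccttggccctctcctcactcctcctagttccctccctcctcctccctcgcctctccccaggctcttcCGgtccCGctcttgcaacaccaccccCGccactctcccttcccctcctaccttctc

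Methylation was lower in both kinds of antibody-secreting cell than in naive B cells. Over the 295 CpGs the mean level was 47.7%, 45.3% and 44.8% in plasma cells, 49.1%, 52.9% and 50.7% in plasmablasts and 60.1%, 61.7% and 62.5% in naive B cells. The 3 groups did not overlap. Over all tested CpGs the means were 48.6 to 51.8% in plasma cells, 53.9 to 56.1% in plasmablasts and 61.0 to 63.2% in naive B cells. Plasma cells and plasmablasts lie in different background sets. Their median difference was -4.16 points over the members and -3.85 over all CpGs, and once the library set entered the model it was -1.48 and -0.423. The locus difference then changed sign at 9 of the 21 loci tested. The part of the library set in the order of plasma cells and plasmablasts was not tested further.

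Calls of single CpGs needed an adjusted p below 0.01 (quasi-binomial model with dispersion moderated by limma, Benjamini-Hochberg over all 356320 CpGs) and a difference of pooled levels of 20 percentage points or more. In plasma cells 79 of the 295 member CpGs (26.8%) were called lower than in naive B cells, against 22.3% of all CpGs. In plasmablasts 42 (14.2%) were called lower than in naive B cells, against 10.1% of all. None was called higher in either, where 0.0407% of all CpGs were called higher in plasma cells and 0.0539% in plasmablasts; at an unadjusted p under 0.05, 0 members were higher in plasma cells and 5 in plasmablasts, and limma on log ratios called none higher in either. The median difference over the 295 was -12.3 points in plasma cells (all CpGs -9.62) and -7.36 in plasmablasts (all CpGs -5.88). Between plasma cells and plasmablasts 1 member CpG was called, lower in plasma cells and in TACI, where 0.313% of all CpGs were called lower.

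TACI and BAFF receptor had higher shares than the rest. These genes held 35 of the 295 CpGs, and 19 of them (54.3%) were called lower in plasma cells and 13 (37.1%) in plasmablasts. Of the other 260 member CpGs, 60 (23.1%) were called lower in plasma cells and 29 (11.2%) in plasmablasts, close to the shares over all CpGs. The 72 member CpGs within 1 kb of a start site were all among these 260. Of the 72, 63 stood under 20% in naive B cells, which leaves hardly any room for a loss of 20 points. The shares of TACI and BAFF receptor and of the rest thus compare CpGs at unlike distances from start sites. By role, the BAFF and APRIL system had 21 of 43 CpGs lower in plasma cells and 13 in plasmablasts. The T cell costimulation genes had 21 and 12 of 113, the TNF, death and decoy receptor genes 17 and 8 of 85, and the bone, tissue and other genes 20 and 9 of 54. Of the 233 receptor CpGs 60 (25.8%) were lower in plasma cells and 34 (14.6%) in plasmablasts, and of the 62 ligand CpGs 19 (30.6%) and 8 (12.9%).

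**Figure D1:**
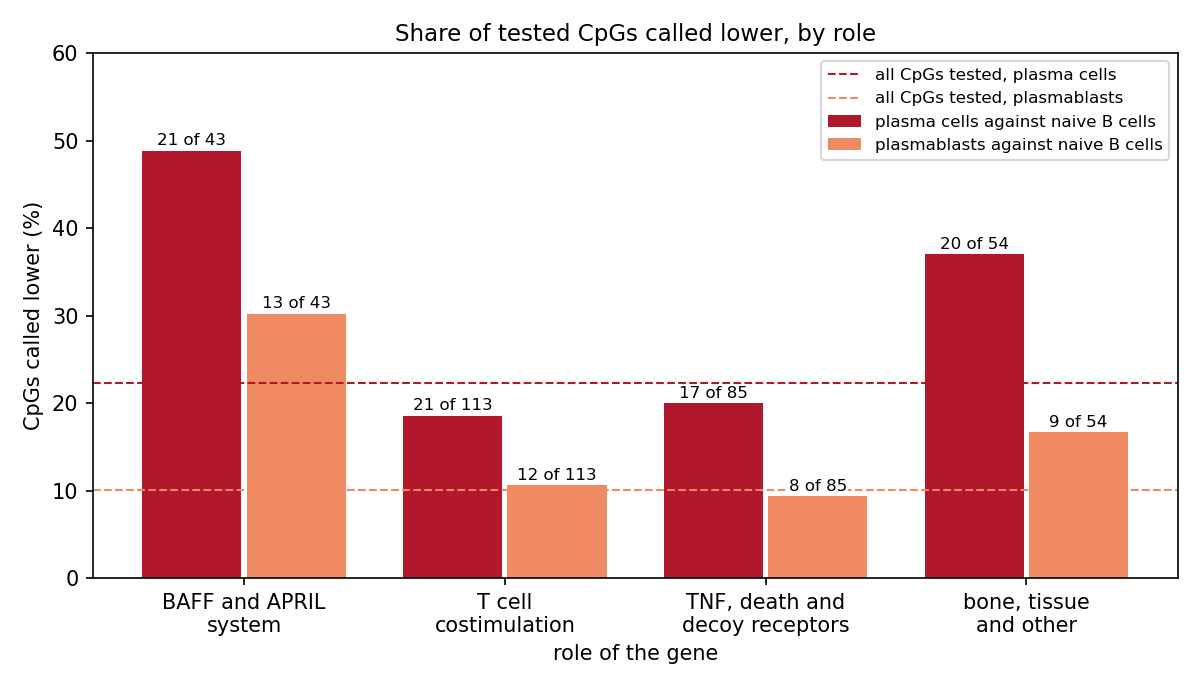
Bars give the percentage of tested CpGs called lower in plasma cells and in plasmablasts than in naive B cells for each role, with the counts above them. Dashed lines mark the shares over all tested CpGs, 22.3% and 10.1%. The BAFF and APRIL system stands above both at 48.8% and 30.2%, and bone, tissue and other at 37.0% and 16.7%. Of the BAFF and APRIL calls, 19 of 21 in plasma cells and 13 of 13 in plasmablasts were in TACI and BAFF receptor.

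Calls depended on the level in naive B cells. Of the 92 member CpGs under 20% in naive B cells none was called lower. At that level the difference of 20 points leaves hardly any room for a call, and 4 of all 109314 such CpGs were called in plasma cells. Of the 164 at 80% or more, 58 (35.4%) were called lower in plasma cells and 29 (17.7%) in plasmablasts, against 32.9% and 15.7% of all such CpGs. Of the 21 between 50 and 80%, 15 (71.4%) were called lower in plasma cells and 9 (42.9%) in plasmablasts, against 39.8% and 13.8% of all CpGs in that range. Of the 18 between 20 and 50%, 6 (33.3%) and 4 (22.2%) were called lower in the same groups, against 13.4% and 3.17% of all. Some of the 21 lie close enough to share reads, as a pair in Tnfrsf8 does, so they are not independent.

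**Figure D2:**
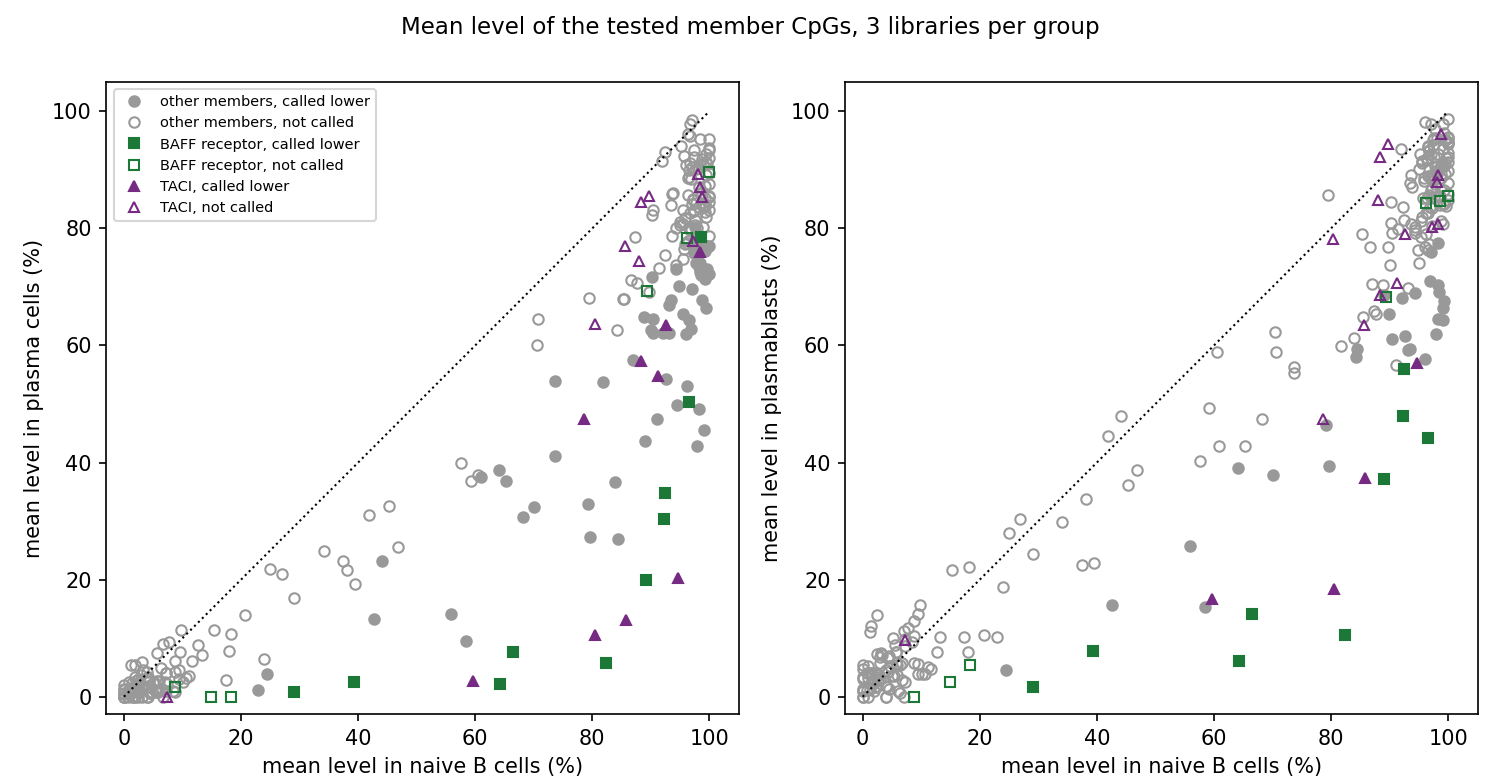
Each point is 1 of the 295 CpGs, with its mean level in naive B cells on the x axis and in plasma cells (left) or plasmablasts (right) on the y axis, 3 libraries per group; filled points were called lower and the dotted line marks equal levels. Most points lie under the line, and no called point stands under 20% in naive B cells.

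BAFF receptor, the survival receptor of naive B cells, had the largest loss of the superfamily. Reads were summed over the tested CpGs of a gene, here called its locus, where 5 or more were tested, and the 14220 such loci were called at an adjusted p below 0.01 and 5 points. The Tnfrsf13c locus (chr15, 16 CpGs) stood at 27.3%, 24.2% and 19.4% in plasma cells, 31.7%, 40.4% and 34.4% in plasmablasts and 66.2%, 69.9% and 68.1% in naive B cells. No library of either antibody-secreting group reached the lowest naive B cell library. The pooled difference from naive B cells was -44.8 points in plasma cells (adjusted p = 1.96e-05) and -32.4 in plasmablasts (adjusted p = 0.000685). With each CpG counted equally these differences came to -37.9 and -32.6 points. Ranked by pooled loss among the 14220 loci the Tnfrsf13c locus stood at 31 in plasma cells (0.218%) and at 20 in plasmablasts (0.141%). Every plasma cell library was also below every plasmablast library, yet the difference of -12.4 points between them was not called (adjusted p = 0.0551). With each CpG counted equally that difference was -5.29 points.

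Within the BAFF receptor gene the tested CpGs lay in exon sequence towards its end. The run of 7 CpGs at chr15:82053147-82053594 (mm9), 1171 to 1618 bp downstream of the start site, with 4 of the 7 in the 3′ untranslated region per the deposited annotation, stood at 13.5%, 5.93% and 7.71% in plasma cells, 16.0%, 22.9% and 18.2% in plasmablasts and 63.7%, 76.8% and 71.4% in naive B cells, from 177 to 454 reads per library. All 7 were called lower in both groups. The largest single loss of any member CpG was here, at position 82053172. It had 9.09%, 0% and 8% in plasma cells, 3.85%, 14.6% and 13.2% in plasmablasts and 83.3%, 78.8% and 84.8% in naive B cells, a difference of -75.5 points in plasma cells (adjusted p = 5.79e-15) and -70.8 in plasmablasts (adjusted p = 3.97e-12). The value of 0% in plasma cells 2 came from 25 reads, which allow up to 12%. The neighbour at 82053193 fell to 29.5%, 4% and 26% in plasma cells, against 87.5%, 85.3% and 94.4% in naive B cells (-66.7 points, adjusted p = 5.07e-12), with 30.8%, 43.9% and 36.8% in plasmablasts.

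The other tested CpGs of BAFF receptor lay upstream and between genes. A run of 6 at chr15:82059162-82059428, at -4658 to -4392 bp from the start, stood at 66.9%, 65.1% and 64.7% in plasma cells, 68.1%, 76.9% and 78.8% in plasmablasts and 94.0%, 94.8% and 99.1% in naive B cells, with 3 of the 6 called lower in plasma cells and 2 in plasmablasts. Those at 82059425 and 82059428 were called in both. The plasmablast call at 82059428 was lost without naive B cells 1 or 3 or plasmablasts 1 or 3, and the plasma cell call at 82059162 without naive B cells 2 or plasma cells 2; both were lost under the library set. A further 3 CpGs at chr15:82060292-82060342 were low in every group, at a mean of 0.521% in plasma cells, 2.69% in plasmablasts and 14.1% in naive B cells, and none was called. At position 82053594 of the exon run (Tnfrsf13c_82053594) naive B cells 1 had 58.3% and naive B cells 3 had 14.3%, and without naive B cells 1 its difference shrank to -26.03 points in plasma cells and -20.1 in plasmablasts, where the call was lost as it was once the library set entered the model, against -43.9 and -38.01 with all libraries.

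**Figure D3:**
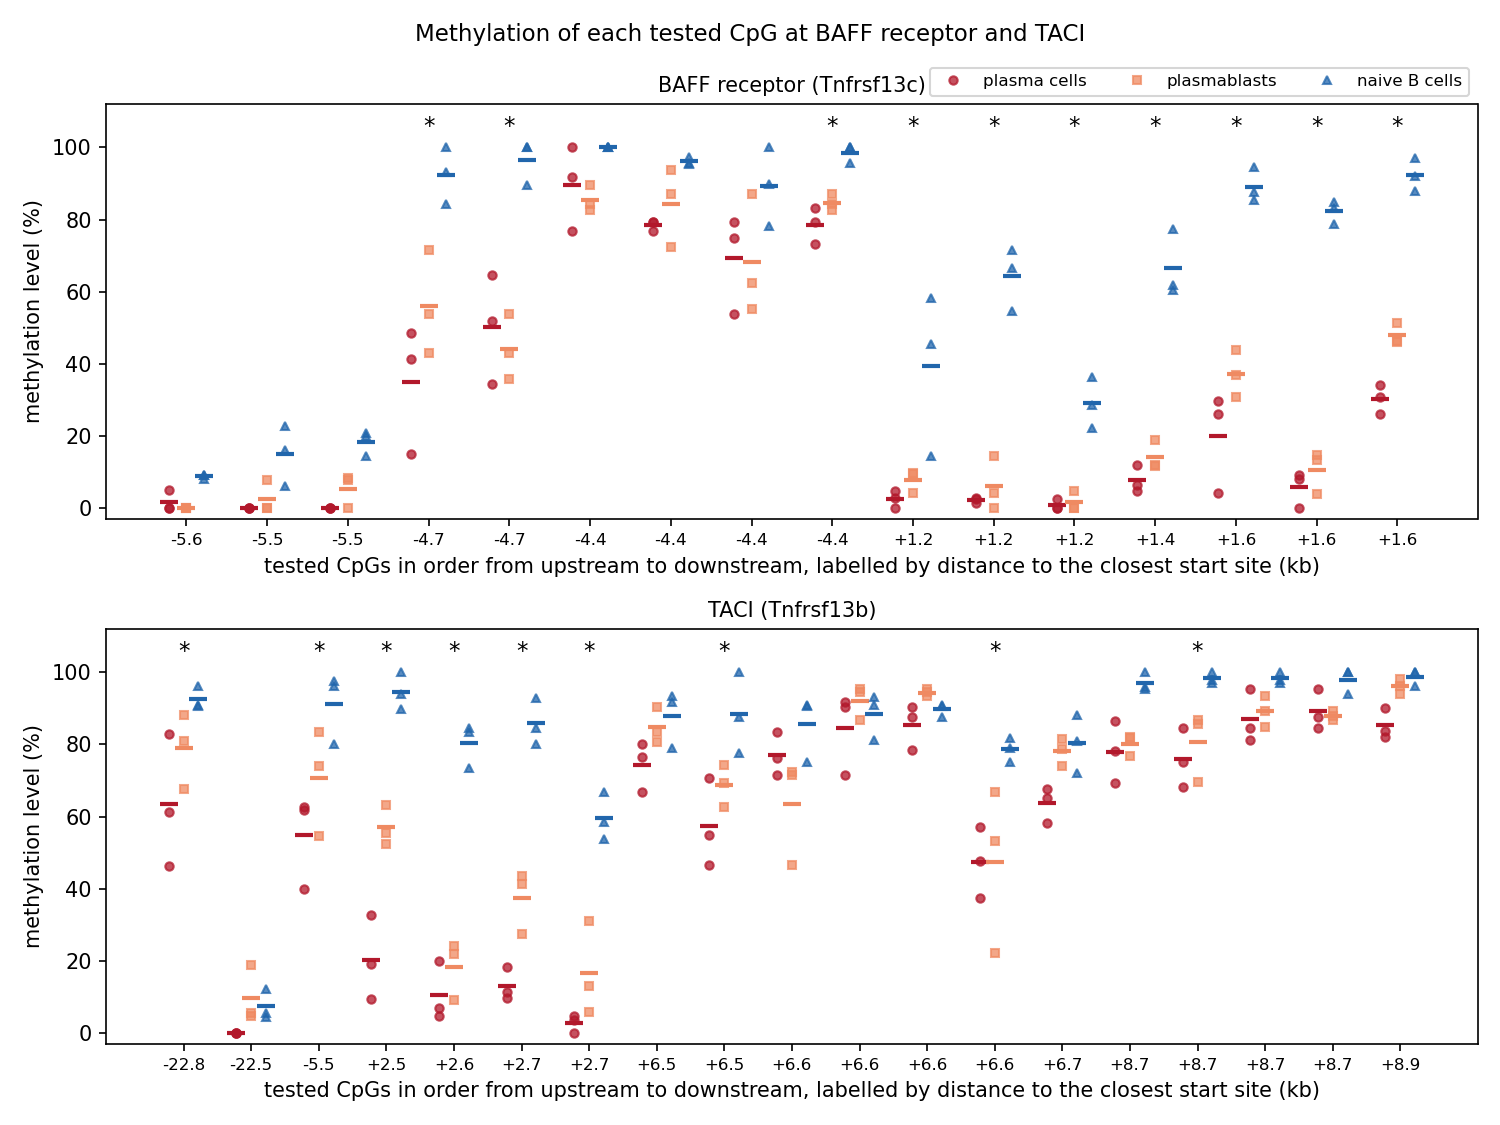
Each tested CpG of BAFF receptor (top) and TACI (bottom) is shown from upstream to downstream with its level in the 3 plasma cell, plasmablast and naive B cell libraries as points, their mean as a short bar, and an asterisk where plasma cells were called lower than naive B cells. The 7 exon CpGs of BAFF receptor averaged 9.06% in plasma cells, 19.02% in plasmablasts and 70.7% in naive B cells, and the 4 intron CpGs of TACI 12.05%, 30.05% and 80.04% in the same groups.

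TACI, the receptor for both BAFF and APRIL, was lower in both groups than in naive B cells, with plasma cells the lowest. The Tnfrsf13b locus (chr11, 19 CpGs) stood at 54.2%, 46.8% and 47.6% in plasma cells, 66.3%, 66.7% and 63.5% in plasmablasts and 84.0%, 83.8% and 85.1% in naive B cells. The 3 groups did not overlap. The pooled difference from naive B cells was -34.5 points in plasma cells (adjusted p = 2.1e-05) and -18.7 in plasmablasts (adjusted p = 0.00128). With each CpG counted equally these differences came to -27.9 and -18.4 points. The rank of the Tnfrsf13b locus by pooled loss among the 14220 loci was 124 in plasma cells (0.872%) and 382 in plasmablasts (2.69%). The difference of plasma cells from plasmablasts was -15.7 points, which was not called with all libraries (adjusted p = 0.0478). It was called without plasma cells 1 (-18.2 points, adjusted p = 0.00352), where 2163 of all 14220 loci were called lower. Limma on unweighted means also called it (-9.55 points, adjusted p = 0.00343), with 1450 of all loci. Over the settings its adjusted p ran up to 0.445, and with the library set in the model no member locus was called between these groups.

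The largest TACI losses were close together in an intron. A run of 4 CpGs at chr11:60942754-60942928 (mm9), 2496 to 2670 bp downstream of the closest start site, stood at 13.8%, 9.73% and 12.6% in plasma cells, 32.2%, 36.1% and 21.9% in plasmablasts and 81.1%, 79.0% and 80% in naive B cells, from 50 to 230 reads per library. All 4 were called lower in both groups. The first, at 60942754, was the member CpG called between plasma cells and plasmablasts: it had 32.7%, 19.0% and 9.23% in plasma cells, 55.6%, 52.4% and 63.2% in plasmablasts and 89.7%, 94.1% and 100% in naive B cells. Plasma cells differed from plasmablasts by -37.7 points (adjusted p = 0.00452) and from naive B cells by -73.3 points (adjusted p = 5.86e-13). Leaving out plasma cells 2, plasma cells 3 or any 1 plasmablast library ended the call between plasma cells and plasmablasts. That call was also lost with the library set or the replicate block in the model, with each CpG's own dispersion, and by limma on log ratios. With the library set 3 of all 356320 CpGs were called lower between these groups. At 60942919 plasma cells had 11.4%, 9.52% and 18.2%, plasmablasts 43.5%, 41.4% and 27.3%, and naive B cells 92.9%, 80% and 84.6% (plasma cells against naive B cells -75.1 points, adjusted p = 1.46e-13). At 60942898, close enough to share reads, plasma cells had 4.55%, 6.98% and 20.0%, plasmablasts 21.7%, 24.1% and 9.09%, and naive B cells 83.3%, 73.3% and 84.6% (-70.2 points, adjusted p = 4.11e-12).

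Elsewhere in TACI the levels moved less. The 7 CpGs of exon and intron at chr11:60960798-60960990 averaged 68.8% in plasma cells, 76.0% in plasmablasts and 85.8% in naive B cells, with 2 called lower in plasma cells and none in plasmablasts. The call at 60960802 was lost without naive B cells 2 or 3 or plasma cells 2 or 3. That at 60960972 was lost without naive B cells 1 or plasma cells 1 or 3 and by limma on log ratios. Both were lost under the library set. The 5 beyond the gene at chr11:60963027-60963229 averaged 83.5%, 87.7% and 98.1% in the same groups, with 1 called lower in plasma cells, a call lost without plasma cells 2 and under the library set. Upstream, single CpGs at 60934742 and 60917506 were called lower in plasma cells at differences of -41.7 and -28.6 points, and the call at 60917506 was lost without plasma cells 3. Tested CpGs of all members fell into 92 runs in which neighbours lay within 500 bp, and 45 runs held 3 or more. Of these 45, the intron run of TACI and the exon run of BAFF receptor were the 2 in which every CpG was called lower, in plasma cells as in plasmablasts; some runs of 1 or 2 CpGs were also called throughout. With 20 or more reads required in each library the intron CpGs of TACI fell out of the test, and its locus difference was then -16.7 points in plasma cells and -11.4 in plasmablasts, where the call was lost (adjusted p = 0.0164).

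Plasma cells and plasmablasts were set against the same naive B cell libraries here and throughout, so their losses are given side by side and their overlap is no separate result.

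The remaining genes of this branch were thinly covered and had no locus test. BCMA, the plasma cell survival receptor (Tnfrsf17, chr16), had 3 tested CpGs. The intron CpG at 11317984 had 37.2%, 16.7% and 15.6% in plasma cells, 45.5%, 51.1% and 47.4% in plasmablasts and 41.3%, 45.5% and 45.7% in naive B cells, from 33 to 90 reads. It was called lower in plasma cells (-20.3 points, adjusted p = 0.00209) and plasmablasts overlapped naive B cells (4.80 points, adjusted p = 0.627). That call was lost without naive B cells 2 or 3 or plasma cells 2 or 3, and once the library set entered the model. The replicate block and limma on log ratios also ended the BCMA call. BAFF itself (Tnfsf13b, chr8) had 4 intron CpGs. At 10016446 the levels were 88.5%, 53.3% and 59.1% in plasma cells, 75%, 81.2% and 52.9% in plasmablasts and 94.3%, 88.4% and 96.7% in naive B cells, called lower in plasma cells (-22.8 points, adjusted p = 0.0042) although plasma cells 1 overlapped naive B cells. The BAFF call was lost without naive B cells 1 or 3 or plasma cells 2 or 3, and under the library set as well. APRIL (Tnfsf13, chr11) had 1 tested CpG, in its promoter, at 19.4%, 32.3% and 25.0% in plasma cells, 38.1%, 43.3% and 34.5% in plasmablasts and 43.5%, 57.1% and 40.0% in naive B cells (-20.5 points in plasma cells, adjusted p = 0.0336), which was not called.

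Across all 21 member loci that could be tested, 15 (71.4%) were called lower in plasma cells than in naive B cells, against 64.4% of all loci, and 4 (19.0%) in plasmablasts, against 19.8% of all. The quasi-binomial model called none higher in either, with 0 at an unadjusted p under 0.05 and 0 by limma on unweighted means. Between plasma cells and plasmablasts it called none of the 21 and none of all 14220 loci. At an unadjusted p under 0.05, 7 of the 21 were lower, and 6320 of all loci. Limma on unweighted means called 2 of the 21, and 1450 of all loci. The count in plasma cells fell to 8 without plasma cells 3 and to 8 once the library set entered the model. The same settings gave 6072 and 4917 of all 14220 loci. Called in plasmablasts were Tnfrsf13c, Tnfrsf13b, Tnfsf12Tnfsf13 and Tnfrsf9. The median locus difference was -18.5 points in plasma cells (all loci -15.7) and -9.73 in plasmablasts (all loci -7.42).

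**Figure D4:**
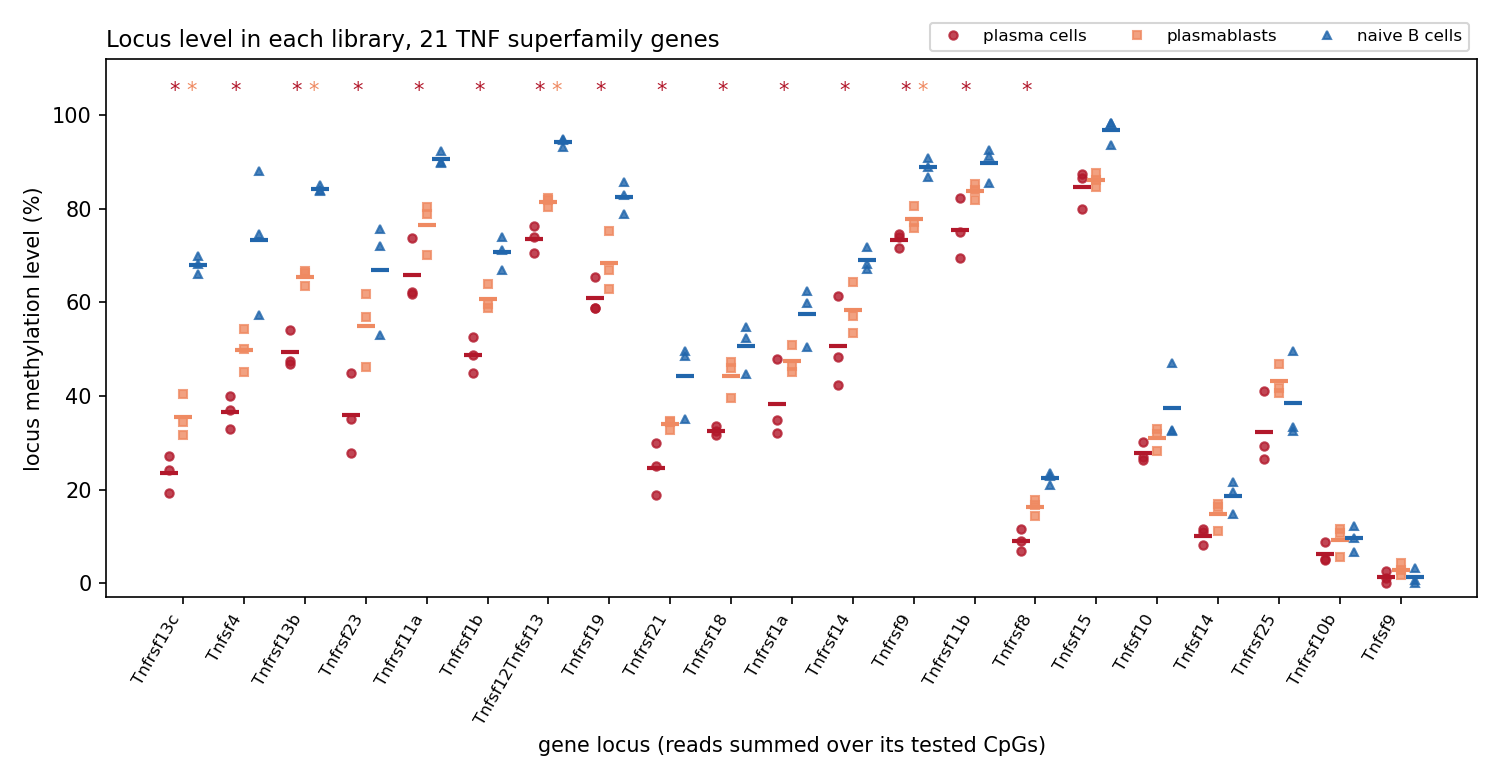
Points give the level of each of the 21 loci in the 3 plasma cell, plasmablast and naive B cell libraries, with their mean as a short bar, in order of the difference between plasma cells and naive B cells. Asterisks mark loci called lower than naive B cells in plasma cells (left) and in plasmablasts (right). Tnfrsf13c has the largest difference (-44.8 points), and asterisks stand at 15 loci for plasma cells and 4 for plasmablasts.

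Among T cell costimulation genes the largest locus loss was at Tnfsf4, which encodes OX40 ligand. Its 5 CpGs stood at 40.0%, 36.9% and 32.9% in plasma cells, 45.0%, 54.4% and 50.0% in plasmablasts and 57.3%, 74.7% and 88.2% in naive B cells. The naive B cell libraries spread widely, and the difference of -35.2 points in plasma cells (adjusted p = 0.00283) was -22.3 when each CpG counted equally and -18.5 once the library set entered the model, where the call was lost. It was also lost without naive B cells 2 or 3 or plasma cells 3. Tnfrsf9, the T cell costimulator 4-1BB (21 CpGs), was called in both groups with 73.9%, 74.7% and 71.6% in plasma cells, 77.1%, 80.7% and 75.9% in plasmablasts and 86.8%, 90.9% and 89.0% in naive B cells. The plasmablast call at Tnfrsf9 (-10.8 points, adjusted p = 0.00572) was lost without naive B cells 2 or 3, plasma cells 2 or any 1 plasmablast library. The replicate block and a minimum of 20 reads also ended it. The plasma cell difference at Tnfrsf9 was -15.7 points (adjusted p = 0.000291).

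Tnfrsf18 and Tnfrsf14 were called lower in plasma cells, and their plasmablast differences of -7.46 and -10.4 points were not called. Tnfrsf18, which encodes GITR, had 33.5%, 32.5% and 31.7% in plasma cells, 39.6%, 47.3% and 46% in plasmablasts and 54.8%, 52.5% and 44.7% in naive B cells, a difference of -19.3 points (adjusted p = 0.000657). Of its 4 CpGs called lower in plasma cells, 3 lay in a run of 4 between genes at chr4:155405444-155405813 (mm9), with a mean of 18.2% in plasma cells, 35.4% in plasmablasts and 57.8% in naive B cells. Tnfrsf14 (HVEM, receptor for LIGHT) had 20 tested CpGs, all outside genes, and differed by -17.4 points in plasma cells (adjusted p = 0.00468); plasma cells 1 stood at 61.4%, against 42.4% and 48.3% in the other plasma cell libraries. That call was lost without naive B cells 2 or 3 or plasma cells 2 or 3, and once the library set entered the model. The replicate block and a minimum of 20 reads also ended the Tnfrsf14 call. Tnfrsf8, also called in plasma cells (-13.5 points), is described with the start sites. The loci of Tnfsf15 (TL1A), Tnfrsf25 (its receptor DR3), Tnfsf14 (LIGHT) and Tnfsf9 (4-1BB ligand) were not called in plasma cells, with differences of -11.6, -7.34, -8.16 and 0.0278 points. Tnfsf9 was tested only within 1 kb of its start site, where it averaged 1.24% in plasma cells, 2.93% in plasmablasts and 1.36% in naive B cells. Tnfrsf4 (OX40) and Tnfsf8 (CD30 ligand) had 3 and 4 tested CpGs, of which 0 and 2 were called lower in plasma cells.

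Of the TNF, death and decoy receptors, 4 of 6 loci were called lower in plasma cells and none in plasmablasts, where 64.4% and 19.8% of all loci were. Tnfrsf23, a mouse decoy receptor for TRAIL, had 44.9%, 35.1% and 27.8% in plasma cells, 46.2%, 56.9% and 61.9% in plasmablasts and 53.0%, 72.0% and 75.8% in naive B cells. Its pooled difference of -28.1 points (adjusted p = 0.00377) was -9.33 when each CpG counted equally, -13.3 with the CpGs near the start left out and -16.5 once the library set entered the model, which lost the call. The call was also lost without naive B cells 2 or 3 or plasma cells 2 or 3. Tnfrsf1b, TNF receptor 2, had 52.6%, 48.8% and 44.9% in plasma cells, 58.8%, 63.9% and 59.7% in plasmablasts and 67.0%, 74.1% and 71.2% in naive B cells (-22.2 points in plasma cells, adjusted p = 0.00071). The call was lost once the library set entered the model (-17.9 points). A run of 3 intron CpGs at chr4:144825745-144825948, with 2 called lower in both groups, had a mean of 7.33% in plasma cells, 11.7% in plasmablasts and 36.4% in naive B cells.

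Tnfrsf1a, TNF receptor 1 (29 CpGs), and Tnfrsf21, the death receptor DR6 (12 CpGs), were called lower in plasma cells at differences of -18.5 and -19.9 points (adjusted p = 0.00269 and 0.00304). With each CpG counted equally these came to -10.9 and -9.57, and once the library set entered the model to -12.0 and -12.4, where both calls were lost. Both were lost without naive B cells 2 or plasma cells 3. The call of Tnfrsf1a was also lost without plasma cells 2, and that of Tnfrsf21 without naive B cells 3 and with the replicate block. At Tnfrsf1a plasma cells 1 had 47.9%, against 32.1% and 34.9% in the other plasma cell libraries. The loci of Tnfrsf10b, the TRAIL receptor, and Tnfsf10, TRAIL itself, were not called in either group. Tnfrsf22, another decoy receptor, had 2 tested CpGs, with 1 called lower in plasma cells.

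In the remaining group Tnfrsf11a, Tnfsf12Tnfsf13, Tnfrsf19 and Tnfrsf11b were all called lower in plasma cells. Tnfrsf11a encodes RANK, the osteoclast receptor, and its 10 tested CpGs lay 58862 to 103358 bp downstream of the start site, in introns and between genes. They stood at 73.7%, 62.2% and 61.8% in plasma cells, 80.4%, 78.8% and 70.2% in plasmablasts and 92.3%, 90.1% and 89.7% in naive B cells (-24.1 points in plasma cells, adjusted p = 0.000362). Tnfsf12Tnfsf13, the read-through of TWEAK and APRIL whose 21 CpGs here include 16 outside genes, stood at 76.3%, 74.0% and 70.7% in plasma cells, 80.4%, 82.3% and 81.8% in plasmablasts and 94.8%, 93.2% and 95.01% in naive B cells. It was called in both, at a difference of -20.7 points in plasma cells (adjusted p = 3.68e-05) and -12.7 in plasmablasts (adjusted p = 0.00113), and 9 and 4 of its 21 CpGs were called lower.

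Tnfrsf19 (TROY), an epithelial and neural receptor, stood at 65.3%, 58.8% and 58.8% in plasma cells, 62.9%, 75.3% and 67.0% in plasmablasts and 78.8%, 83.1% and 85.8% in naive B cells. The difference of -20.6 points in plasma cells (adjusted p = 0.00178) was -9.77 where 20 reads were required. That call was lost, as it was without plasma cells 3 and once the library set entered the model. Tnfrsf11b, the decoy for RANK ligand known as osteoprotegerin, differed by -14.7 points in plasma cells (adjusted p = 0.00478). The Tnfrsf11b call was lost without naive B cells 1 or 3 or plasma cells 2 or 3, and with the replicate block. Tnfrsf12a, the TWEAK receptor, had 3 CpGs near its start site, at a mean of 2.23% in plasma cells, 1.80% in plasmablasts and 4.85% in naive B cells.

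Near start sites most member CpGs were low in every group. Within 1 kb lay 72 member CpGs of 16 genes, 63 of them under 20% in naive B cells, and their mean was 6.48% in plasma cells, 9.40% in plasmablasts and 10.5% in naive B cells. Of these 3 (4.17%) were called lower in each group, against 4.73% of all such CpGs in plasma cells and 1.72% in plasmablasts. From 1 to 10 kb away 43 of 121 (35.5%) were called lower in plasma cells and 27 (22.3%) in plasmablasts, against 24.5% and 10.9% of all CpGs at that distance. All 16 tested CpGs of BAFF receptor lie in that range, with 10 called lower in plasma cells and 9 in plasmablasts. So does the intron run of TACI, with all 4 CpGs called lower in both groups. Beyond 10 kb 33 of 102 (32.4%) were called lower in plasma cells and 12 (11.8%) in plasmablasts, against 30.5% and 14.3% of all.

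Of the 6 start regions with 5 or more tested CpGs, CD30 (Tnfrsf8), a receptor of activated lymphocytes, was called lower in plasma cells, where 4.52% of all 7117 start regions were, and none was called in plasmablasts, where 0.169% of all were (1 lower at an unadjusted p under 0.05). Its 15 CpGs within 1 kb stood at 7.33%, 5.28% and 5.41% in plasma cells, 11.3%, 13.6% and 8.80% in plasmablasts and 14.2%, 17.4% and 21.2% in naive B cells, a pooled difference of -11.5 points in plasma cells (adjusted p = 0.00317). The groups did not overlap. That call was lost without naive B cells 2 or 3 or plasma cells 2 or 3, and once the library set or the replicate block entered the model.

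The 10 CpGs of the printed CD30 promoter were low in every group. They averaged 0 to 4.01% in plasma cells, 1.39 to 8.63% in plasmablasts and 1.24 to 7.19% in naive B cells, so that a loss of 20 points against naive B cells could not occur there. In an intron the CpG 359 bp after the start had 33.3%, 30.3% and 34.9% in plasma cells, 57.1%, 45.2% and 36.7% in plasmablasts and 79.4%, 82.0% and 76.1% in naive B cells, called lower in plasma cells at a difference of -46.2 points (adjusted p = 1.04e-07) and in plasmablasts at a difference of -32.4 (adjusted p = 0.000312). The CpG 372 bp after the start was called lower at differences of -25.7 points in plasma cells and -24.5 in plasmablasts, with plasma cells 1 (54.5%) inside the range of naive B cells (54.0 to 72.3%). A CpG between genes at -60155 bp was called lower at a difference of -52.6 points in plasma cells and -32.2 in plasmablasts. At TNF receptor 1 the CpGs from -406 to 198 bp averaged 0 to 7.5% in plasma cells, 0 to 12.2% in plasmablasts and 0 to 5.71% in naive B cells. The CpG at -723 bp was higher, at a mean of 31.02% in plasma cells, 44.6% in plasmablasts and 41.8% in naive B cells, and the start region was not called.

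**Figure D5:**
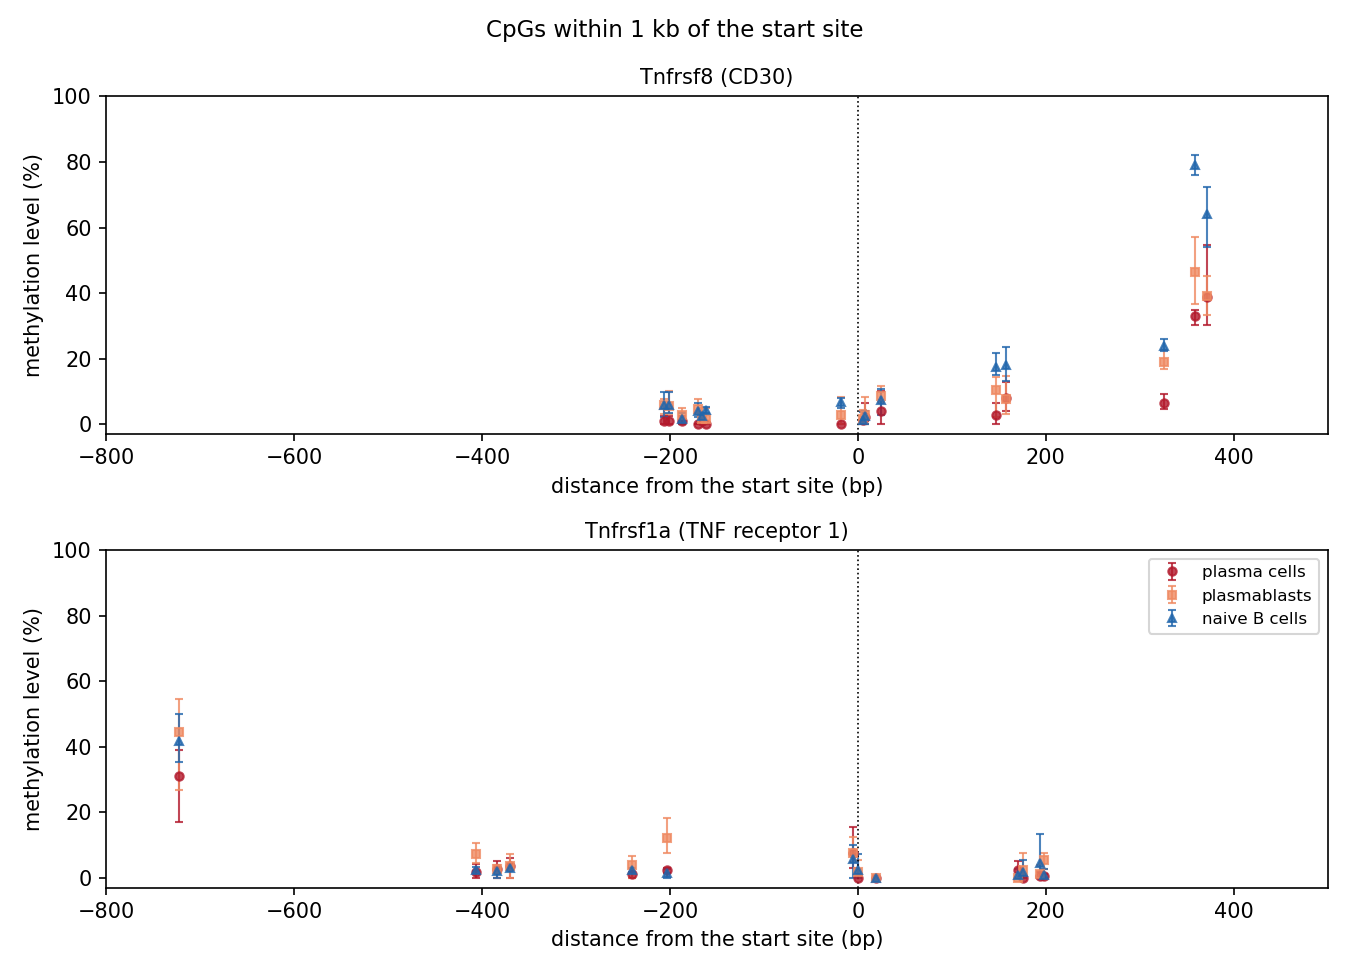
Points give the mean level of each CpG within 1 kb of the start site of Tnfrsf8 (top) and Tnfrsf1a (bottom) in plasma cells, plasmablasts and naive B cells, and bars run from the lowest to the highest of the 3 libraries. Levels are low next to both start sites and higher at -723 bp of Tnfrsf1a, and at Tnfrsf8 the groups part at 359 bp (means 32.8%, 46.3% and 79.2%).

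Genes of the same pathway outside the naming rule are given beside the shares over all loci, 64.4% lower in plasma cells and 19.8% in plasmablasts. Of 15 superfamily members under other symbols 10 had a locus test, with 8 called lower in plasma cells and 1 in plasmablasts. Of 29 signalling genes 24 were tested, with 19 called lower in plasma cells and 6 in plasmablasts, and none of either list was called higher. Their median differences in plasma cells were -18.8 and -17.6 points, beside -15.7 over all loci. The largest called plasma cell losses were as follows (SD, n = 3 each). Cflar, the caspase-8 inhibitor, averaged 20.1% ± 4.42 in plasma cells, 36.6% ± 5.07 in plasmablasts and 54.9% ± 10.2 in naive B cells, with a plasma cell difference of -33.6 points. Traf1, an adaptor induced by NF-kB, averaged 24.2% ± 5.01, 32.0% ± 3.89 and 54.5% ± 3.03 in the same groups, with a difference of -30.1 points. Nfkbia, the NF-kB inhibitor, averaged 50.6% ± 8.82, 65.1% ± 2.61 and 81.8% ± 4.52, with a difference of -30.1 points. Cd70, the ligand of CD27, averaged 53.5% ± 8.83, 63.2% ± 5.55 and 80.9% ± 6.14, with a difference of -24.6 points.

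The authors' deposited table of differential CpGs lists 60 of the 295 tested member CpGs for plasma cells and 23 for plasmablasts, each against naive B cells. All 60 of the 60 were among the 79 called here, and all 23 of the 23 among the 42 called here. The authors' lists rest on the same reads, and the thresholds used here follow theirs, so this overlap is no separate result. Of the 818 deposited member CpGs at any coverage, the authors' deposited table lists 128 for plasma cells and 43 for plasmablasts. Its lists hold 96854 and 17575 CpGs in all, in the same order.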

How the data were processed

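Reduced representation bisulfite libraries, 3 each, came from plasma cells, plasmablasts and naive B cells, and were grouped by GEO's labels. Bismark, Bowtie2 and mm9 are named, per the submitters' processing notes, without versions in the sources used. Counts deposited by the authors give methylated and unmethylated reads per CpG and library, with strands summed per the file headers, and the authors also deposited the level as a fraction. The deposited table's distance to the closest start site, a signed score in bp, and its gene classes were used as given. Lists of differential CpGs that the authors deposited were matched by position. Libraries of a group correlated at 0.956 to 0.986, with identical counts at up to 1.29% of CpGs, and each was taken as 1 sample.

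The members, gene lists and tests were chosen with earlier results of these data known. All 356320 CpGs with 10 or more reads in each library were fitted with a quasi-binomial logistic model in R 4.3.3 (package data.table, version 1.17.8). Pearson dispersions were moderated with limma 3.58.1, the prior taken from features whose fitted levels lay between 10 and 90% (1.29 for CpGs, 6.83 for loci and 4.00 for start regions) and never below 1. Contrasts were tested by F test on the deviance with Benjamini-Hochberg adjustment, with calls at adjusted p below 0.01 and 20 points (CpGs) or 5 points (loci, and start regions within 1000 bp, each with 5 or more CpGs). Printed levels are library levels or their means, and differences are of pooled reads. The method was tested on simulated data. Named were every called start region, the 8 loci with the largest called loss in plasma cells, the 5 CpGs with the largest called loss in plasma cells, any locus called between plasma cells and plasmablasts or higher, and the BAFF and APRIL genes. Other loci are described after their values were seen. Alternatives were another coverage minimum, each library left out, a replicate term, the library set as a term, each CpG's own dispersion, limma on log ratios, a difference of 10 points, unweighted means, and loci without start regions. Nothing pairs the libraries across groups: deviations of same-numbered libraries correlated at -0.0287 to 0.0302.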

Additional observations from a re-analysis of the deposited data

How the results depend on the processing

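With all libraries 79, 42 and 1 member CpGs were called lower in plasma cells against naive B cells, plasmablasts against naive B cells and plasma cells against plasmablasts. Of all 356320 CpGs 79311, 36101 and 1114 were. With 20 or more reads required the member counts were 29, 12 and 0 of 110 CpGs, since fewer were tested. Of the 11 member loci then tested 8 were called in plasma cells. Of all 113507 CpGs 27568, 12619 and 248 were then called lower, and 5178 of all 7531 loci in plasma cells. With the library set in the model the member counts were 45, 40 and 0, with 8 loci and 0 start regions in plasma cells. Over all features the counts were 32961, 37237 and 3 CpGs, with 4917 loci and 63 start regions in plasma cells. With each CpG's own dispersion the member counts were 0, 0 and 0 (no CpG of all was called). At an unadjusted p under 0.05, 159 and 110 members were lower in plasma cells and plasmablasts, beside 159029 and 112367 of all CpGs. A difference of 10 points gave 119 lower in plasma cells and 1 higher in plasmablasts, beside 120417 and 604 of all CpGs. Limma on log ratios gave 0 between plasma cells and plasmablasts, of members and of all CpGs. The replicate block gave 76, 40 and 0 member CpGs, with 12 and 3 loci and 0 start regions. Over all features it gave 76745, 33583 and 610 CpGs, with 7322 and 889 loci, and 68 start regions in plasma cells. Unweighted means gave 15 of 21 loci in plasmablasts (7998 of all 14220) and 2 between plasma cells and plasmablasts (1450 of all). With start regions left out 9 of 16 loci were called in plasmablasts, and 6347 of all 11230. The causes were not tested.

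Leaving out 1 library at a time gave 69 to 87 member CpGs in plasma cells, 33 to 47 in plasmablasts and 0 to 2 between plasma cells and plasmablasts. Over all CpGs called lower these ranges were 63829 to 88346, 27009 to 37450 and 187 to 2403. Member loci ranged from 8 to 15 in plasma cells, 3 to 5 in plasmablasts and 0 to 1 between them, and start regions in plasma cells from 0 to 1. Over all loci called lower the ranges were 6072 to 10267, 878 to 4113 and 0 to 2163, and over all start regions 37 to 911. No called locus or start region, and no called CpG of TACI, BAFF receptor, BCMA or BAFF, changed sign under an alternative. Against naive B cells the uncalled loci that did were Tnfrsf10b in plasmablasts (0.185 points with all libraries; -1.53 to 1.85 with 1 library left out, -1.29 with the library set and -0.30 unweighted), Tnfrsf25 in plasmablasts (3.30; -0.033 without naive B cells 2 to 9.79 without naive B cells 1, and -4.77 unweighted) and Tnfsf9 in plasma cells (0.0278; -0.704 to 0.799 with 1 library left out, -0.0987 with the replicate block and -0.12 unweighted). Between plasma cells and plasmablasts, where no locus was called, 9 of 21 loci changed sign with the library set in the model (Tnfrsf10b, Tnfrsf19, Tnfrsf1a, Tnfrsf21, Tnfrsf23, Tnfrsf9, Tnfsf15, Tnfsf4 and Tnfsf9), and Tnfrsf19 and Tnfsf15 also under other alternatives. CpGs near 10 reads carry wide intervals.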
